A study of Mus musculus with 20 samples.

Results

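A set of 9 genes, most of them known to restrain MAP kinase signalling, was followed through RNA-seq of mouse intestinal lymphocytes. They were the dual-specificity phosphatases Dusp1, Dusp2, Dusp4, Dusp5, Dusp6 and Dusp10, the Sprouty genes Spry1 and Spry2, and the pleckstrin homology-like gene Phlda1. The 9 genes were taken by symbol, and each was listed in all 4 tables, which together name 25933 genes. They were proposed with earlier results of these data known, without a threshold on any value.

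T cell receptor and cytokine signals reach the nucleus partly through the ERK, p38 and JNK kinases. Dual-specificity phosphatases remove the activating phosphates from these kinases, and many of their genes are switched on by the same kinases, so that the signal limits itself. Sprouty proteins act further up, where they damp the passage from receptors through Ras to ERK. Intraepithelial lymphocytes of the gut are known for a partly activated state held under restraint.

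The cells were TCRαβ+CD8αα+ intraepithelial lymphocytes of the small intestine, sorted from unchallenged mice and measured in bulk. In the sorting experiment, RFP+CD160+ cells were set against RFP-CD160- cells (3 libraries each), all from Bcl6-RFP/RFP reporter mice. In the 3 deletion experiments, whole TCRαβ+CD8αα+ populations of Bcl6fl/fl Cd8cre, Prdm1fl/fl Cd8cre and Tcf7fl/fl Cd8cre mice were set against floxed littermates without Cd8cre (2 libraries per genotype). TCF1 is the protein of Tcf7. Cd8cre was present in every deleted genotype and in no littermate genotype, so an effect of the recombinase cannot be told apart from loss of the gene. The labels give neither the ages of the mice nor whether libraries of a group came from separate animals, and p-values therefore measure only the spread between libraries, which may be technical. A further 2 libraries titled LI, of the same reporter genotype and with small intestine as their labelled tissue, had no stated sort and entered no test. In bulk RNA, fewer cells that carry a transcript and less of it per cell cannot be told apart.

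Depth recovered from the values lay between 14.5 and 17.4 M reads per sorted library, 22.1 and 23.0 M for Bcl6, 30.1 and 38.4 M for Prdm1 and 41.0 and 48.2 M for Tcf7. Cd8a stood at 542 to 612 FPKM in RFP+CD160+ cells and 871 to 946 FPKM in RFP-CD160- cells, while Cd8b1, which marks CD8αβ cells, stayed between 0.720 and 1.27 FPKM in these 6 libraries. None of the 4 gamma-delta T cell markers looked up was listed in any table, so that gate could not be checked. In the sort, Bcl6 stood at 13.7 to 18.0 FPKM in RFP+CD160+ cells and 3.30 to 3.59 FPKM in RFP-CD160- cells, and Cd160 at 231 to 242 FPKM in RFP+CD160+ cells and 61.9 to 69.8 FPKM in RFP-CD160- cells. Prdm1 read 640 and 362 in Prdm1-deleted cells against 6092 and 5117 in littermates, in size-factor-scaled reads. Tcf7 read 7757 and 7993 in Tcf7-deleted cells against 15430 and 15606 in littermates. A large part of the Tcf7 signal thus remained in Tcf7-deleted cells, which makes it only a partial check of that label. Bcl6 was low in its own experiment, at 0.550 and 0.638 FPKM in deleted cells and 0.772 and 0.735 FPKM in littermates, which makes it a weak check of that label.

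Promoter sequence is shown for the members whose window holds a cAMP response element (CRE), its core or a CArG box, the elements through which growth-factor and receptor signals are known to reach immediate-early genes. The sequences are from RefSeq on GRCm38.p6 and cover parts of a 300-base window around each annotated start. Capitals mark TGACG, the CRE core (on either strand), the full CRE TGACGTCA, or the CArG box. They run 5′ to 3′ along the gene:
Dusp1, minus strand of chr17:26508598-26508673: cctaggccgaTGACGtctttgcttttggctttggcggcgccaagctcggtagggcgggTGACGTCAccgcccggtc
Dusp2, plus strand of chr2:127336154-127336178: cccccagaacCGTCAgctcccgcca
Dusp5, plus strand of chr19:53529053-53529104: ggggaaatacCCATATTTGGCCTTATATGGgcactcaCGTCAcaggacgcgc

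The Dusp1 window held a full CRE starting 143 bases before the start and another CRE core at 191 bases before it; the full element also contains the core on each strand. The Dusp5 window held adjoining CArG boxes from 82 and 72 bases before the start and a CRE core from 55 bases before it. In Dusp2 the core lay just inside the transcript. A full CRE was present in 1.79% and a CArG box in 1.63% of 32851 promoter windows of this length, against 20.8% for the CRE core, 7.81% for the AP-1 element TGANTCA and 23.8% for the ETS element GGAAGT. Promoter windows were available for 7 of the 9 members, not for Dusp4 or Phlda1. Those of Dusp6, Dusp10, Spry1 and Spry2 held no match to the 5 motifs, and Dusp5 also had an ETS match. These matches describe the letters of the window and show no binding.

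Levels were compared between genes only in FPKM, which is scaled to gene length. In RFP+CD160+ cells the order ran from Dusp1 (238 ± 20.2 FPKM; SD, n = 3) through Spry2 (197 ± 22.4 FPKM), Dusp5, Dusp6, Dusp10, Dusp2, Phlda1 and Dusp4 to Spry1 (0.998 ± 0.155 FPKM). Only the neighbours Dusp6 and Dusp10 overlapped in that order. In RFP-CD160- cells Dusp5 (140.2 ± 25.0 FPKM) took the second place, overlapping with Dusp1 (147 ± 19.1 FPKM), and Spry2 (69.8 ± 12.2 FPKM) came after it. The phosphatases Dusp1 and Dusp5 ranked above 97.4% or more of the table's genes in both populations, and Spry2 above 95.7% or more.

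The sorted populations differed in 6 of the 8 members that could be tested, in opposing directions. Dusp1, Dusp4 and Spry2 were higher in RFP+CD160+ cells, and Dusp2, Dusp5 and Dusp6 were lower. Of 9717 genes tested, 16.4% were called higher and 21.6% lower, against 3 higher and 3 lower of the 8 members, of which Dusp4 met the filter through the RFP+CD160+ libraries alone. The median log2 fold change was -0.09 over the members tested and -0.03 over all genes. Changes between the groups were tested with limma on log2(value + 1), with p-values adjusted by Benjamini-Hochberg over all genes of the experiment and a threshold of 0.05. This scale understates the fold change of low transcripts.

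Dusp1, at 17:26505590-26562128 on GRCm38 (a span that reaches upstream of the RefSeq start used above), encodes the nuclear phosphatase MKP-1, which acts on p38, JNK and ERK and is itself an immediate-early gene. It was measured at 221, 260.4 and 232 FPKM in RFP+CD160+ libraries, against 125, 157 and 158 FPKM in RFP-CD160- libraries. All RFP+CD160+ libraries lay above all RFP-CD160- ones, with a log2 fold change of 0.70 ± 0.10 (± SE throughout) and an adjusted p of 0.00128 in limma.

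Dusp2 (2:127336159-127338376) encodes a nuclear phosphatase of activated lymphocytes and behaved in the opposite way. It was measured at 11.7, 10.1 and 9.31 FPKM in RFP+CD160+ cells, against 13.6, 23.6 and 24.8 FPKM in RFP-CD160- cells. The groups did not overlap, although the first RFP-CD160- library came close to the RFP+CD160+ range. Its log2 fold change was -0.89 ± 0.20 (limma, adjusted p = 0.00961).

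Dusp4 (8:34807297-34819894), which encodes the nuclear phosphatase MKP-2, was scarce in both populations but changed most among the phosphatases. It read 2.17, 2.08 and 1.62 FPKM in RFP+CD160+ cells, against 0.729, 0.526 and 0.420 FPKM in RFP-CD160- cells. The groups were well apart, resting on 75.0 to 89.0 reads per RFP+CD160+ library and 20.0 to 33.0 per RFP-CD160- library. The log2 fold change was 0.92 ± 0.12 (limma, adjusted p = 6.39e-04), and the ratio of the mean FPKM values was 3.51. Dusp4 entered the test only through RFP+CD160+ libraries, since no RFP-CD160- library reached the filter of 1 FPKM, so its call is not independent of that entry.

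The ERK-specific phosphatases were lower in RFP+CD160+ cells. Dusp6 (10:99263231-99267489), the cytoplasmic ERK phosphatase, gave 30.3, 30.1 and 32.0 FPKM in RFP+CD160+ cells and 40.9, 43.4 and 44.3 FPKM in RFP-CD160- cells. Its libraries were tight and the groups separate, with a log2 fold change of -0.46 ± 0.05 (limma, adjusted p = 3.15e-04). Dusp5 (19:53529109-53542431), its nuclear counterpart, read 97.4, 77.1 and 119.6 FPKM in RFP+CD160+ cells, against 167, 137 and 117 FPKM in RFP-CD160- cells. The highest RFP+CD160+ library lay inside the RFP-CD160- range. The log2 fold change of Dusp5 was -0.52 ± 0.17 (limma, adjusted p = 0.0431), and this call was lost when any of 4 libraries was left out (RFP+CD160+ replicate 1 or 2, RFP-CD160- replicate 1 or 2; adjusted p from 0.0882 to 0.120), without the filter (0.0686), without the variance trend (0.0567) or with library totals rescaled (0.0897).

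Dusp10 (1:184013302-184075636), the phosphatase MKP-5 that prefers p38 and JNK, did not pass the test. It read 27.7, 21.8 and 38.1 FPKM in RFP+CD160+ cells and 36.8, 30.3 and 28.3 FPKM in RFP-CD160- cells. The third RFP+CD160+ library was the highest of the 6 and the second the lowest. The log2 fold change was -0.15, with a 95% interval from -0.57 to 0.27 (limma, adjusted p = 0.558).

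Spry2 (14:105891947-105896819), an inhibitor of receptor-driven Ras-ERK signalling, had the largest change on the log2(value + 1) scale among the members tested. It was measured at 196, 176 and 220.5 FPKM in RFP+CD160+ cells, against 55.8, 78.5 and 75.3 FPKM in RFP-CD160- cells. The lowest RFP+CD160+ library was far above the highest RFP-CD160- one. Its log2 fold change was 1.49 ± 0.13 (limma, adjusted p = 9.20e-05), a ratio of means of 2.83.

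Spry1 (3:37639947-37644598) was rare, with 40.0 to 51.0 reads per RFP+CD160+ library and 4.00 to 18.0 per RFP-CD160- library, and failed the filter of 1 FPKM in 3 libraries. Its values were 1.17, 0.947 and 0.876 FPKM in RFP+CD160+ cells and 0.0833, 0.372 and 0.159 FPKM in RFP-CD160- cells, so the groups did not overlap. Without the filter its log2 fold change was 0.73 (limma, adjusted p = 0.00209).

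Phlda1 (10:111506286-111508645), which is induced by T cell receptor signals, read 4.63, 4.65 and 4.00 FPKM in RFP+CD160+ cells and 4.42, 4.27 and 4.94 FPKM in RFP-CD160- cells. The groups overlapped, and the log2 fold change of -0.03 had a 95% interval from -0.22 to 0.16 (limma, adjusted p = 0.787).

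**Figure D1:**
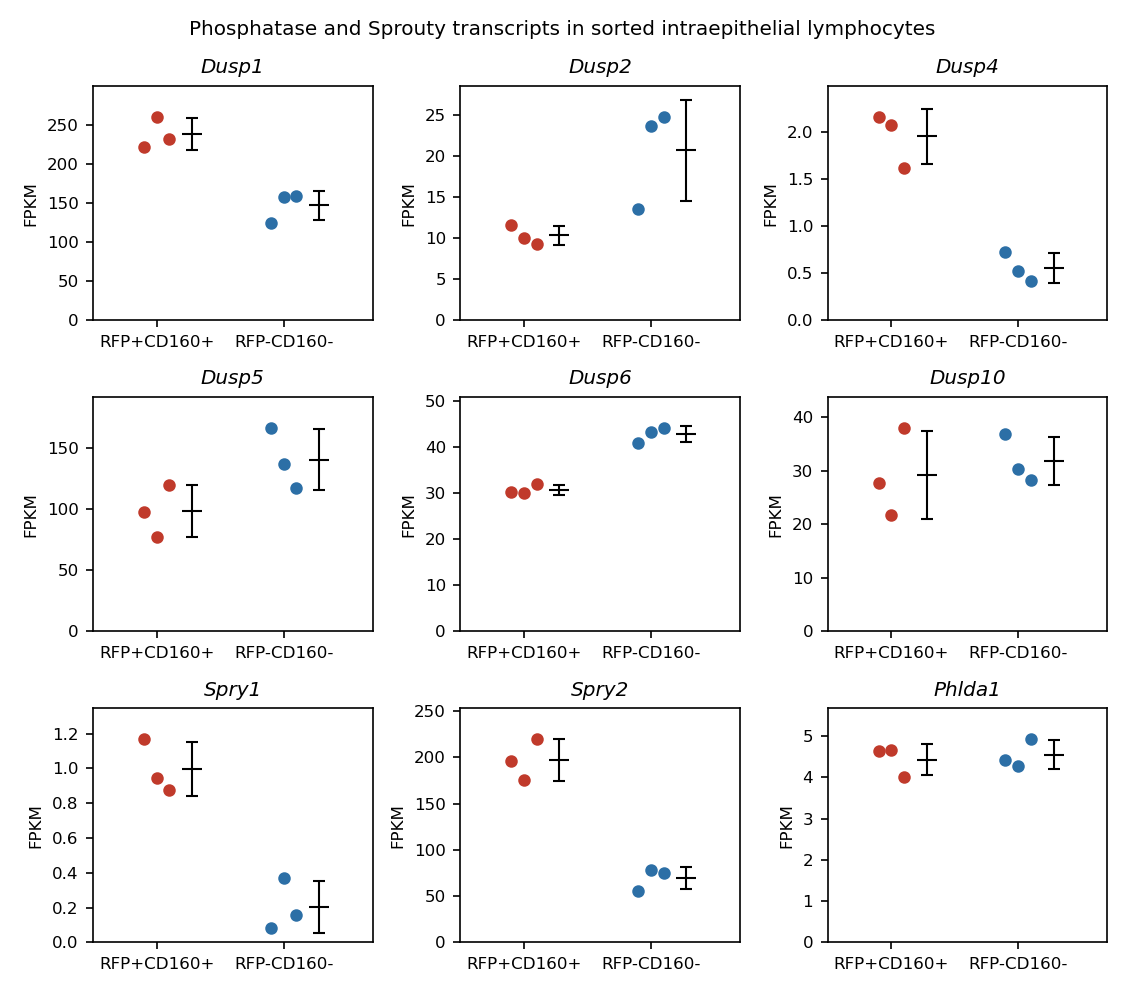
Level of each of the 9 genes (FPKM, 1 panel per gene, axes from 0) in the 3 RFP+CD160+ and 3 RFP-CD160- libraries; points are libraries and bars are the mean ± SD. Spry2, Dusp1 and Dusp4 sit higher in RFP+CD160+ cells, Dusp2 and Dusp6 sit lower without overlap, and Dusp5, Dusp10 and Phlda1 overlap.

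Because Dusp1 was higher and Dusp5, Dusp6 and Dusp2 lower, the summed phosphatase level as deposited changed little while its make-up shifted. The 6 Dusp genes summed to 391 to 433 FPKM in RFP+CD160+ libraries and 373 to 392 FPKM in RFP-CD160- libraries. Dusp1 made up 53.7 to 64.9% of that sum in RFP+CD160+ cells, against 32.5 to 42.4% in RFP-CD160- cells. Dusp5 made up 19.2 to 27.6% in RFP+CD160+ cells, against 31.4 to 43.5% in RFP-CD160- cells. For the feedback genes of the ERK pathway, the ratio of Spry2 to Dusp6 was 5.85 to 6.89 in RFP+CD160+ libraries and 1.37 to 1.81 in RFP-CD160- libraries. These shares rest on FPKM within a library and do not depend on how libraries were scaled to each other. The sum does depend on it. With library totals rescaled, the log2 fold change of Dusp1 was 0.86, beside 0.70 as deposited, and that of Dusp5 was -0.36, beside -0.52. Shares and sums are descriptions of the values above, with no test of their own.

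**Figure D2:**
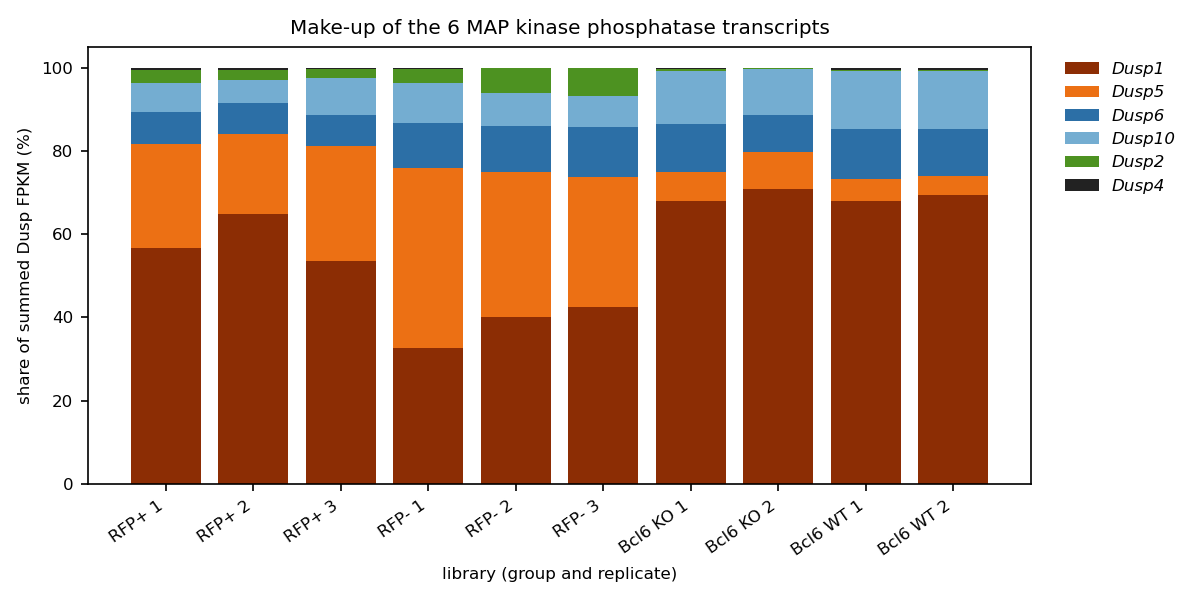
Share of the summed FPKM of Dusp1, Dusp2, Dusp4, Dusp5, Dusp6 and Dusp10 (%, stacked bars, 1 bar per library) in RFP+CD160+ (RFP+) and RFP-CD160- (RFP-) cells and in the Bcl6 experiment (KO, deleted; WT, floxed littermate). Dusp1 takes 53.7 to 64.9% in RFP+CD160+ cells and 32.5 to 42.4% in RFP-CD160- cells, and 67.9 to 70.9% in the Bcl6-deleted libraries beside 68.0 to 69.5% in littermates.

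Around the members, other genes of the pathway were called in both directions, beside 16.4% higher and 21.6% lower of all genes tested. Of 11 other dual-specificity and MAP kinase phosphatase genes tested, 1 was higher and 2 lower. Ptpn5, a tyrosine phosphatase that inactivates ERK and p38, averaged 10.1 ± 1.50 FPKM in RFP+CD160+ cells and 74.4 ± 8.95 FPKM in RFP-CD160- cells (SD, n = 3 each; limma, adjusted p = 2.04e-06). Ptpn7, the haematopoietic relative of Ptpn5, averaged 4.50 ± 0.588 FPKM in RFP+CD160+ cells and 13.6 ± 0.358 FPKM in RFP-CD160- cells and was lower too (limma, adjusted p = 9.29e-06). Among 16 other Sprouty, Spred and Ras-restraining genes, 5 were higher and 2 lower. The EGF receptor inhibitor Errfi1 was among the lower ones, at 19.2 ± 3.81 FPKM in RFP+CD160+ cells and 81.6 ± 12.6 FPKM in RFP-CD160- cells (limma, adjusted p = 2.75e-05).

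Of 25 Ras-ERK genes, 4 were higher and 7 lower, and of 25 p38-JNK genes, 5 were higher and 7 lower, shares close to the 16.4% higher and 21.6% lower of all genes. Mapk3, which encodes ERK1, averaged 30.9 ± 1.40 FPKM in RFP+CD160+ cells and 56.0 ± 1.31 FPKM in RFP-CD160- cells (limma, adjusted p = 1.18e-05). Gadd45g, an activator of the p38 and JNK cascades, averaged 2.73 ± 0.489 FPKM in RFP+CD160+ cells and 36.8 ± 7.79 FPKM in RFP-CD160- cells (limma, adjusted p = 2.41e-06). Early-response transcription factors and other genes induced through ERK were mostly higher, 22 of 31 tested, with 3 lower and a median log2 fold change of 0.59. Klf4, an inducible transcription factor, averaged 21.4 ± 2.78 FPKM in RFP+CD160+ cells and 4.10 ± 0.0367 FPKM in RFP-CD160- cells (limma, adjusted p = 2.04e-06). Heat-shock and dissociation-response genes moved in the same direction, with 13 of 14 higher and a median of 0.81. Their part in the levels of Dusp1, Dusp4 and Spry2 was not tested.

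Rescaling each library to the same total moved the median of all genes from -0.03 to 0.12 on the log2 scale and turned the balance of calls to 3300 higher and 1171 lower, beside 1591 higher and 2098 lower as deposited. Quantile normalization gave 2014 higher and 1747 lower. On both scales Dusp1, Dusp4 and Spry2 were still higher and Dusp2 and Dusp6 still lower. The sums of epithelial markers were 52.2 to 96.8 FPKM in RFP+CD160+ libraries and 75.5 to 303 FPKM in RFP-CD160- libraries (12 of 12 markers listed; 1 of 9 tested was lower). RFP-CD160- replicate 2 alone gave the 303, and the other RFP-CD160- libraries had 75.5 and 102 FPKM, within or near the RFP+CD160+ range. Without that library the calls of Dusp1, Dusp2, Dusp4, Dusp6 and Spry2 held and that of Dusp5 did not.

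Deletion of Bcl6, which encodes a transcriptional repressor, was accompanied by lower Phlda1 and, less firmly, lower Dusp4. Of 9573 genes tested, 0.0313% were called higher and 0.387% lower. Of the 8 members tested, 2 were called lower and no member higher with limma. At an unadjusted p under 0.05 the count was 1 higher and 2 lower, beside 559 of all 9573 genes in either direction. The median log2 fold change was -0.23 over the members and 0.03 over all genes tested.

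Phlda1 fell to 3.24 and 4.89 FPKM in Bcl6-deleted cells, against 14.7 and 16.2 FPKM in littermates. The groups were far apart, with a log2 fold change of -1.72 ± 0.21 (limma, adjusted p = 0.00908). Dusp4 fell to 1.12 and 0.804 FPKM in Bcl6-deleted cells, against 3.25 and 3.99 FPKM in littermates. These groups did not overlap, and the log2 fold change was -1.24 ± 0.20 (limma, adjusted p = 0.0441). Dusp4 met the filter of 1 FPKM in 2 libraries through the littermates, since only 1 deleted library reached it. The Dusp4 call lay close to the threshold: it was lost with a pseudocount of 0.1 (adjusted p = 0.0539), without the filter (0.0974), with rescaled totals (0.0600), with quantile normalization (0.110) and without littermate replicate 2 (0.192).

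The remaining members were not called. Dusp5 read 41.8 and 52.9 FPKM in Bcl6-deleted cells, against 33.9 and 30.6 FPKM in littermates, without overlap (log2 fold change 0.53, 95% interval 0.13 to 0.93; limma, adjusted p = 0.623). Dusp6 read 70.6 and 52.2 FPKM in Bcl6-deleted cells and 78.7 and 74.7 FPKM in littermates (limma, adjusted p = 0.936). Dusp10 read 77.5 and 65.4 FPKM in Bcl6-deleted cells and 90.8 and 92.7 FPKM in littermates (limma, adjusted p = 0.875). The groups did not overlap for these phosphatase genes, nor for Dusp1 and Spry1, given below. How many of all genes were separate in this way was not counted, and with 2 libraries per genotype separation alone says little. Without Bcl6-deleted replicate 1 the log2 fold changes were 0.70 for Dusp5, -0.55 for Dusp6 and -0.48 for Dusp10. That fit has a single deleted library, assumed to vary like the littermates.

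Dusp1, the most abundant member, read 411 and 421 FPKM in Bcl6-deleted cells and 443 and 464 FPKM in littermates (log2 fold change -0.12, 95% interval -0.49 to 0.25; limma, adjusted p = 0.957). Dusp2 was low here, at 3.10 and 1.32 FPKM in Bcl6-deleted cells and 1.89 and 1.81 FPKM in littermates, with the deleted libraries on either side. Spry1 stayed under 1 FPKM, at 0.321 and 0.303 FPKM in Bcl6-deleted cells and 0.553 and 0.638 FPKM in littermates, and was not tested.

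Spry2 could not be given a direction in this experiment. It read 64.1 and 167 FPKM in Bcl6-deleted cells, against 129.7 and 88.7 FPKM in littermates, so the deleted libraries were the lowest and the highest of the 4. The log2 fold change was -0.05, with a 95% interval from -0.92 to 0.82 (limma, adjusted p = 0.990). Without Bcl6-deleted replicate 1 it was 0.63 (adjusted p = 2.90e-04) and without Bcl6-deleted replicate 2 it was -0.73 (adjusted p = 5.95e-05), each again from 1 deleted library. Deleted replicate 2 stood apart in myeloid markers, which summed to 63.3 FPKM there, 31.9 FPKM in deleted replicate 1 and 28.2 and 34.7 FPKM in littermates; the part of this in the Spry2 values was not tested.

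Most heat-shock transcripts and a few early-response ones were lower in the same Bcl6-deleted libraries. Of 14 heat-shock and dissociation genes, 9 were lower (median log2 fold change -1.32), and of 30 early-response genes, 5 were lower (median -0.36). The chaperone gene Hspa1a averaged 117 ± 15.3 FPKM in Bcl6-deleted cells and 654 ± 53.2 FPKM in littermates (SD, n = 2 each; limma, adjusted p = 5.79e-04). The stress-inducible factor Atf3 averaged 10.0 ± 2.33 FPKM in Bcl6-deleted cells and 38.7 ± 2.94 FPKM in littermates (limma, adjusted p = 0.00408). The part of this shift in the lower Dusp4 and Phlda1 was not tested. With limma no gene of the other phosphatase (11 tested), Ras-restraining (12), Ras-ERK (23) or p38-JNK (24) lists was called. At an unadjusted p under 0.05 those lists gave 2, 2, 1 and 1 genes in that order. Epithelial markers summed to 212 to 229 FPKM in Bcl6-deleted libraries and 336 to 344 FPKM in littermates. Without the Paneth cell genes Defa24 and Lyz1, the other 10 summed to 190.3 and 172 FPKM in Bcl6-deleted libraries and 168 and 178 FPKM in littermates. Markers of CD8αβ and CD4 T cells summed to 35.4 and 37.8 FPKM in Bcl6-deleted libraries and 57.1 and 49.5 FPKM in littermates. Of the 4 tested none was called, and Cd4 was higher in Bcl6-deleted libraries. The part of these markers in the lower Dusp4 and Phlda1 was not tested.

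**Figure D3:**
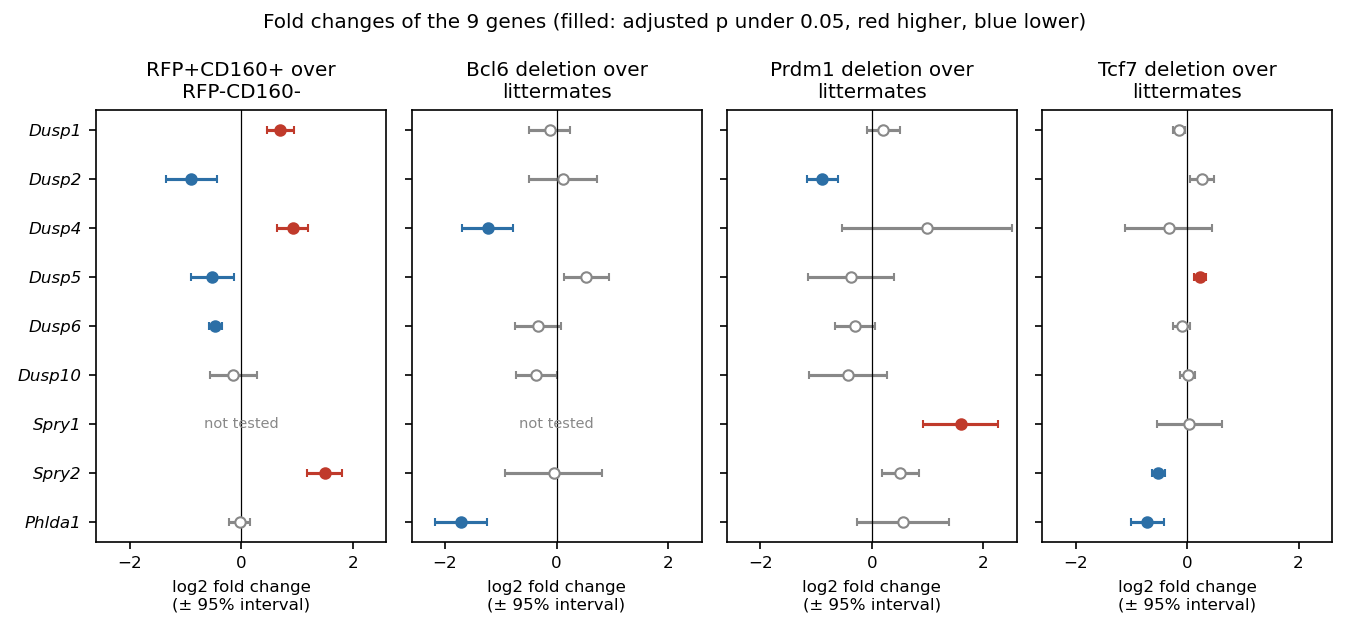
Log2 fold change of each member (log2 scale of value + 1, bars are 95% intervals from limma) in RFP+CD160+ over RFP-CD160- cells and in each deletion over its littermates; filled points passed an adjusted p under 0.05. Spry2 is the largest positive change in the sorted cells (1.49), Phlda1 the largest negative one after Bcl6 deletion (-1.72), and Spry1 was tested in the Prdm1 and Tcf7 experiments.

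Deletion of Prdm1, which encodes the repressor BLIMP1, was accompanied by lower Dusp2 and higher Spry1. All 9 members passed the filter of 50 in size-factor-scaled reads, a unit that is not scaled to gene length and is not compared between genes. Of 10969 genes tested, 4.29% were called higher and 2.54% lower, beside 1 higher and 1 lower of the 9 members. The median log2 fold change was 0.21 over the members and -0.04 over all genes tested.

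Dusp2 read 662 and 667 in Prdm1-deleted cells, against 1181 and 1278 in littermates. The libraries of each group were close together and the groups separate, with a log2 fold change of -0.89 ± 0.12 (limma, adjusted p = 0.00917). Spry1 read 208 and 245 in Prdm1-deleted cells, against 61.0 and 89.7 in littermates. This rare transcript was separate between the groups, resting on 59.0 to 236 reads per library, with a log2 fold change of 1.60 ± 0.28 (limma, adjusted p = 0.0224). Its partner Spry2 read 17229.7 and 13717 in Prdm1-deleted cells, against 11102 and 10439 in littermates. The groups did not overlap, but the log2 fold change of 0.51 ± 0.14 missed the threshold (limma, adjusted p = 0.0804). Spry2 passed with rescaled totals (0.0222), with quantile normalization (0.0330), without Prdm1-deleted replicate 2 (0.0382) and with DESeq2 on recovered reads (0.00206).

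In 5 members (Dusp4, Dusp5, Dusp6, Dusp10 and Phlda1) the library numbered 1 stood above the library numbered 2 in both groups, and the groups overlapped. Summed markers of CD8αβ and CD4 T cells split likewise, at 3848 and 2305 in Prdm1-deleted cells and 5018 and 3643 in littermates. Among them Cd8b1 read 135 and 27.0 in Prdm1-deleted cells and 98.3 and 8.63 in littermates. Cd4 ran the other way in both groups, and Foxp3 did so in Prdm1-deleted cells. The part of these markers in the split was not tested. Dusp4 read 380.3 and 128 in Prdm1-deleted cells and 190.3 and 63.9 in littermates (log2 fold change 0.99, 95% interval -0.53 to 2.52; limma, adjusted p = 0.434). Dusp5 read 12069 and 6308 in Prdm1-deleted cells and 14156 and 9107 in littermates (limma, adjusted p = 0.561). Phlda1 read 1403 and 706 in Prdm1-deleted cells and 847 and 536 in littermates (limma, adjusted p = 0.411). On the log2 scale, the spread inside each group was as wide as the difference between groups for Dusp4, Dusp5 and Phlda1.

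Dusp10 read 4228 and 2279 in Prdm1-deleted cells and 4948 and 3499.8 in littermates (limma, adjusted p = 0.466). Dusp6 read 3822 and 3064 in Prdm1-deleted cells and 4682 and 3804 in littermates (limma, adjusted p = 0.310). Dusp1 read 23325 and 21184 in Prdm1-deleted cells and 18173 and 20329.9 in littermates, separate by a small margin (log2 fold change 0.21, 95% interval -0.09 to 0.51; limma, adjusted p = 0.396). Leaving out 1 library gave log2 fold changes of 0.21 to 1.78 for Dusp4, 0.067 to 1.06 for Phlda1, -0.85 to 0.088 for Dusp5 and -0.87 to 0.023 for Dusp10. Among these fits, the 4 genes were called only where a deleted library was left out. Dusp5 and Dusp10 were then called lower without replicate 1, and Dusp4 and Phlda1 higher without replicate 2. Such a fit has a single deleted library, assumed to vary like the littermates, and its direction follows which of the unequal libraries remained. With the replicate number as a block and no library left out, limma called all 4 genes. The labels do not say that these numbers pair libraries.

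In the same libraries 2 of 14 other phosphatase genes were lower, Ptpn5 and Ptpn7, with no gene higher with limma and 1 higher at an unadjusted p under 0.05. Ptpn5 averaged 2665 ± 151 in Prdm1-deleted cells and 9659 ± 789 in littermates (SD, n = 2 each; limma, adjusted p = 0.00223). Of 17 Ras-restraining genes, 2 were lower. Il17rd, an inhibitor of FGF-driven ERK signalling, averaged 59.7 ± 15.5 in Prdm1-deleted cells and 299 ± 47.6 in littermates (limma, adjusted p = 0.00742). Errfi1 averaged 3831 ± 1344 in Prdm1-deleted cells and 9165 ± 1366 in littermates (limma, adjusted p = 0.0244). Gadd45g was lower, at 217 ± 43.7 in Prdm1-deleted cells and 961 ± 193 in littermates (limma, adjusted p = 0.00391). Mapk13, which encodes p38 delta, was higher, at 221 ± 19.3 in Prdm1-deleted cells and 53.5 ± 2.47 in littermates (limma, adjusted p = 0.00802).

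Early-response genes were higher in 5 of 32 tested (median log2 fold change 0.35), and heat-shock genes in 3 of 13 (median 0.38). Epithelial markers were also higher, 7 of 12 tested, and their sum was 11363 to 20037 in Prdm1-deleted libraries against 5619 to 6460 in littermates, with none of the 12 at 0 throughout. These shares amount to 0.0341 to 0.0640% of the summed signal in Prdm1-deleted libraries and 0.0161 to 0.0195% in littermates. Their part in the higher Spry1 was not tested.

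**Figure D4:**
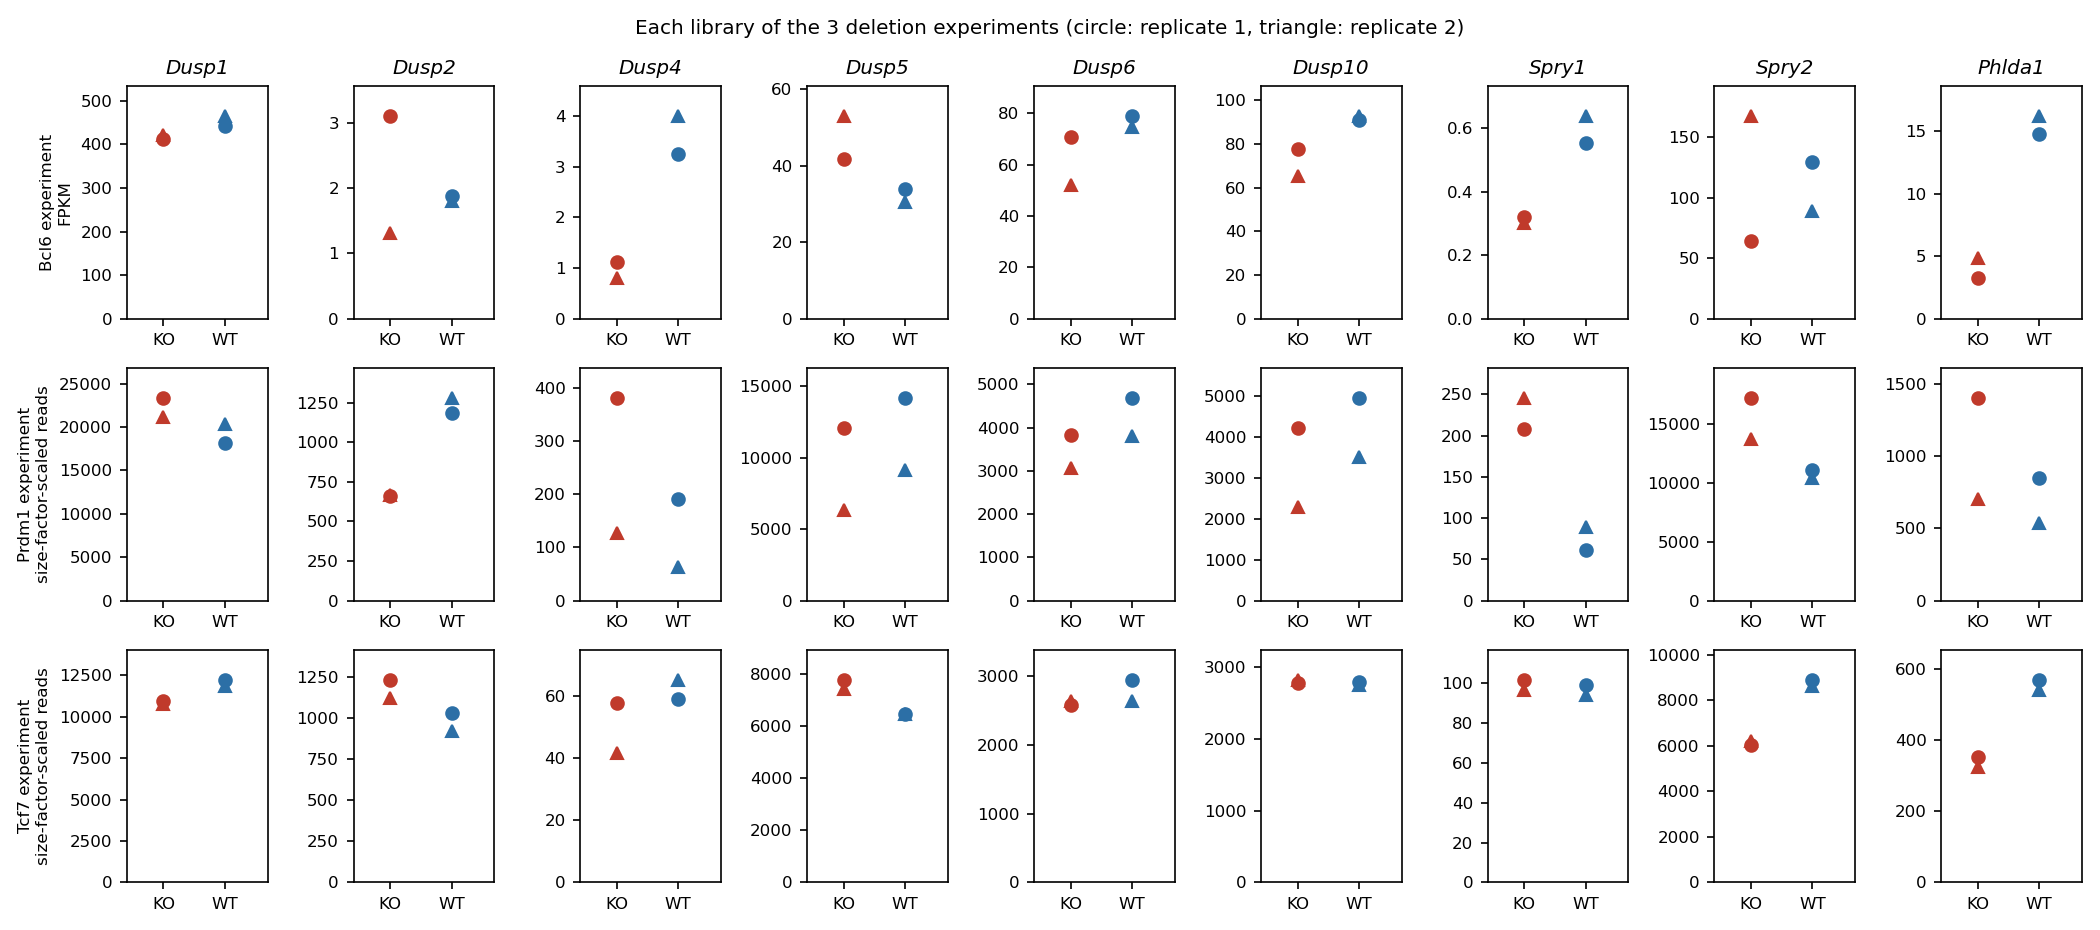
Value of each member in every library of the Bcl6 (FPKM), Prdm1 and Tcf7 (size-factor-scaled reads) experiments, deleted (KO) left of littermates (WT), circles for replicate 1 and triangles for replicate 2, axes from 0. Phlda1 and Dusp4 sit lower after Bcl6 deletion, Dusp2 lower and Spry1 higher after Prdm1 deletion, and Spry2 and Phlda1 lower after Tcf7 deletion.

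Deletion of Tcf7, which encodes the stem-like T cell factor TCF1, was accompanied by lower Spry2 and Phlda1 and slightly higher Dusp5. Of 15210 genes tested, 1.49% were called higher and 1.23% lower, beside 1 higher and 2 lower of the 9 members. The median log2 fold change was -0.09 over the members and 0.00 over all genes.

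Spry2 read 6045 and 6229 in Tcf7-deleted cells, against 8887 and 8621 in littermates. Replicates lay within a few percent of each other and the groups were separate, with a log2 fold change of -0.51 ± 0.05 (limma, adjusted p = 6.8e-05). Phlda1 read 351 and 326 in Tcf7-deleted cells, against 569 and 542 in littermates. These groups were separate too, with a log2 fold change of -0.71 ± 0.14 (limma, adjusted p = 0.010). Dusp5 read 7762 and 7419 in Tcf7-deleted cells, against 6467 and 6452 in littermates. It was higher in both deleted libraries by a small amount, a log2 fold change of 0.23 ± 0.05 (limma, adjusted p = 0.0292). All 3 calls needed the variance trend of limma: without it Spry2, Phlda1 and Dusp5 had an adjusted p of 0.147, 0.119 and 0.355, and 9 genes in all were called. The Dusp5 call was also lost with quantile normalization (0.0507) and without Tcf7-deleted replicate 1 (0.372) or 2 (0.0950), and the Phlda1 call without Tcf7-deleted replicate 2 (0.0513).

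Dusp1 read 10963 and 10746 in Tcf7-deleted cells and 12219 and 11855 in littermates (log2 fold change -0.15, 95% interval -0.25 to -0.04; limma, adjusted p = 0.166). Dusp2 read 1233 and 1123 in Tcf7-deleted cells and 1032 and 922 in littermates (log2 fold change 0.27, 95% interval 0.06 to 0.48; limma, adjusted p = 0.230). The groups did not overlap for either gene, and the gap was wider than the spread within groups for Dusp1 but not for Dusp2. Without littermate replicate 1, Dusp2 was called higher (log2 fold change 0.35, adjusted p = 0.0429), from a single littermate library assumed to vary like the deleted ones. Dusp4 read 57.7 and 41.6 in Tcf7-deleted cells and 59.0 and 65.1 in littermates, barely separate (limma, adjusted p = 0.798).

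Dusp6 read 2578 and 2629.6 in Tcf7-deleted cells and 2938 and 2629 in littermates (limma, adjusted p = 0.672). Dusp10 read 2787 and 2825 in Tcf7-deleted cells and 2798 and 2752 in littermates (log2 fold change 0.02, 95% interval -0.12 to 0.15; limma, adjusted p = 0.951). Spry1 read 101.5 and 96.6 in Tcf7-deleted cells and 99.0 and 93.9 in littermates (95% interval -0.55 to 0.62; limma, adjusted p = 0.972). The groups overlapped for these 3 genes, and the interval of Dusp10 was the narrowest of them.

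Ptpn5 and Errfi1 were higher in Tcf7-deleted cells. Ptpn5 averaged 18832 ± 116 in deleted cells and 12435 ± 232 in littermates (limma, adjusted p = 1.09e-05), and Errfi1 averaged 10373 ± 74.6 in deleted cells and 6453 ± 117 in littermates (limma, adjusted p = 7.32e-06). Of 13 other phosphatase genes 1 was higher, of 18 Ras-restraining genes 1 was higher and 1 lower, of 26 Ras-ERK genes 1 was higher and of 27 p38-JNK genes 2 were higher. Early-response genes split into 2 higher and 2 lower of 32, and heat-shock genes into 1 higher and 3 lower of 13. Epithelial markers were higher in 5 of 12, with a sum of 17791 to 19053 in Tcf7-deleted libraries and 13014 to 13460 in littermates. Markers of CD8αβ and CD4 T cells were higher in 2 of 5 tested, and all 6 listed summed to 2618 to 2656 in Tcf7-deleted libraries and 1410.0 to 1711 in littermates. The part of these shifts in the lower Spry2 and Phlda1 was not tested.

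Set side by side over the 4 comparisons, which share no libraries, Dusp2 had log2 fold changes of -0.89 in RFP+CD160+ cells, 0.12 after Bcl6 deletion, -0.89 after Prdm1 deletion and 0.27 after Tcf7 deletion. Outside the members, Ptpn5, Errfi1, Gadd45g and Rps6ka1 (of the Ras-ERK list) were called lower in RFP+CD160+ and in Prdm1-deleted cells and higher in Tcf7-deleted cells. How many of all genes shared that pattern was not counted, and these genes were picked from the called genes of the lists. Others did not follow it. Ptpn7 was called lower in RFP+CD160+ and in Prdm1-deleted cells but was not called in Tcf7-deleted cells. Atf3 was called higher in both Prdm1-deleted and Tcf7-deleted cells. Spry2 had 1.49, -0.05, 0.51 and -0.51 in the order given for Dusp2, and Dusp4 had 0.92, -1.24, 0.99 and -0.33. Dusp6 was negative throughout, with -0.46, -0.33, -0.30 and -0.09, but passed the test in the sorted cells alone. Whether any of these effects differed between comparisons was not tested.

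Likeness to other genes was measured as the Euclidean distance between the 4 log2 fold changes, among 8808 protein-coding genes tested in every comparison. The genes most like Dusp2 were Bicral (distance 0.133) and Matk (0.156), and those most like Dusp1 were Cdkn2d and Ccdc171 (both 0.125). Irgq (0.0742) and Faap100 (0.0920) lay nearest to Dusp6, Zdhhc24 (0.108) and Cmas (0.138) nearest to Dusp5, and Rarg (0.101) and Irak2 (0.121) nearest to Dusp10. Spry2 was followed by Fam117a (0.206) and Rara (0.239), and Dusp4 by Hspe1 (0.366) and Castor1 (0.436). Phlda1 had no close neighbour, with Slc5a3 at 0.993 and Irf4 at 1.01. Genes with small fold changes have small distances by construction.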

How the data were processed

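Bulk RNA-seq values of 20 libraries were used as deposited, 1 file per library. The values of the sorting and Bcl6 experiments were deposited by the authors as FPKM. The Prdm1 and Tcf7 files, also named FPKM by the authors, hold another unit, a signal equal to reads over a library's size factor and not scaled to length. Dividing by the smallest step gave whole numbers for 100% of them (tolerance 0.01 of a read). The submitters' processing notes list RSEM, featureCounts, Bowtie2, DESeq2, Subread and Trim Galore 0.4.4, with mm10 as genome build, in no stated role or order. The labels' protocols name 2 possible sequencing providers without assigning libraries. How reads shared by related genes were counted is not given in the sources used here.

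With limma 3.58.1 under R 4.3.3, a separate model was fitted to log2(value + 1) for every experiment (mean-variance trend, no covariates, two-sided). Genes entered if libraries numbering the smaller group's size reached 1 FPKM, or 50 on the signal scale. The calculation was tested on simulated data. The files' unit called for thresholds on the signal scale in 2 experiments. Alternatives included edgeR 4.0.16 and DESeq2 1.42.0 on reads recovered from the Prdm1 values. Members and lists were chosen with earlier results of these data known. Other genes named are up to 3 called genes per list by smallest p, and the 2 nearest to each member over 4 fold changes. Gene coordinates are from GENCODE on GRCm38; promoters are from RefSeq. Protein sequences were not used here. Depth in FPKM files was recovered from values times gene length.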

Additional observations from a re-analysis of the deposited data

Results flagged for a closer look

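Of the 9 members, 6 were higher in both libraries titled LI than in all 6 libraries of the sorting experiment, in data that entered no comparison. Of all 12975 genes of the table, 20.7% were above all 6 sorted libraries in the same way and 17.4% below. The labels give these libraries the reporter genotype and the small intestine but no sorted population, and what the title stands for is not stated. The lower of their 2 values was 274 FPKM for Dusp1, where the sorted libraries reached 260.4 FPKM at most. It was 43.5 FPKM for Dusp2 against at most 24.8, 4.49 FPKM for Dusp4 against at most 2.17, and 176 FPKM for Dusp5 against at most 167. It was 1.57 FPKM for Spry1 against at most 1.17, and 9.73 FPKM for Phlda1 against at most 4.94. Dusp6 was lower than in all 6 sorted libraries, at 26.8 FPKM in each, and Spry2 (168 and 174 FPKM) and Dusp10 (28.9 and 32.6 FPKM) lay within their range. Bcl6 read 17.9 and 19.1 FPKM in the LI libraries, Prdm1 0.728 and 0.660 FPKM and Tcf7 261 and 272 FPKM. In RFP+CD160+ libraries Bcl6 stood at 13.7 to 18.0 FPKM, Prdm1 at 0.826 to 1.27 FPKM and Tcf7 at 227 to 245 FPKM. In RFP-CD160- libraries Bcl6 stood at 3.30 to 3.59 FPKM, Prdm1 at 21.4 to 29.8 FPKM and Tcf7 at 3.99 to 6.46 FPKM. Summed epithelial markers of the LI libraries were 29.3 to 32.9 FPKM, with Fabp1, Defa24, Olfm4 and Apoa1 at 0 in both. Other markers differed too: Cd28 read 11.5 and 13.6 FPKM in the LI libraries against 0.0282 to 3.00 FPKM in the sorted ones, Cd8a 297 and 281 against 542 to 946 FPKM, and Itgae 183 and 174 against 334 to 575 FPKM. Their part in the higher members was not tested, and no difference was tested.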

How the results depend on the processing

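In the sorting experiment the number of members called was 5 to 6 under every alternative, beside 6 as reported, and Dusp1, Dusp2, Dusp4, Dusp6 and Spry2 kept their call wherever they were tested. Rescaled totals turned Dusp10 to 0.0095 and Phlda1 to 0.10 (log2 fold change), neither called. Leaving out 1 library gave -0.35 to 0.040 for Dusp10 and -0.066 to 0.027 for Phlda1. In the Bcl6 experiment 1 member was called, in place of 2, with a pseudocount of 0.1, without the filter, with a stricter filter of 5 FPKM, with rescaled totals and with quantile normalization. Leaving out 1 library gave 39 to 1562 genes, beside 40, and 1 to 6 members there, most without deleted replicate 1. It gave -0.30 to 0.53 for Dusp2 and -0.73 to 0.63 for Spry2. In the Prdm1 experiment a stricter filter of 250 gave 422 genes, not 750, and 1 member, since Spry1 was then not tested; that filter split the calls into 210 higher and 212 lower, beside 471 and 279, and edgeR and DESeq2 on recovered reads called 772 and 1184 genes. Leaving out 1 library gave 569 to 1255 genes (most without littermate replicate 2) and 2 to 5 members, with -0.85 to 0.088 for Dusp5 and -0.87 to 0.023 for Dusp10. In the Tcf7 experiment, without the variance trend 9 genes and 0 members were called by limma (3 members at an unadjusted p under 0.05). Leaving out 1 library gave 243 or 268 genes without a deleted library and 727 or 738 without a littermate library, beside 413, and 1 to 4 members. Count tests on the Tcf7 values were not run. Where the cause of a change is not given, the cause was not tested.

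The labels do not say that libraries with the same replicate number share an animal or batch. The correlation of their deviations was -0.46 in the Bcl6, 0.53 in the Prdm1 and 0.06 in the Tcf7 experiment, and at or below 0 in the sorting experiment. Between libraries of unlike number it reached 0.49 in the sorting experiment. In the deletion experiments the value for unlike numbers had the same size with the opposite sign, which is fixed by the calculation with 2 libraries per group. With the replicate number as a block, limma called 2992 genes and 5 members in the sorting experiment, where Dusp5 was lost (adjusted p = 0.0640), 78 and 2 in the Bcl6 experiment, 2386 and 8 in the Prdm1 experiment, all but Dusp1 (adjusted p = 0.00691 for Dusp4, 0.00617 for Dusp5, 0.0118 for Dusp6, 0.00553 for Dusp10, 6.34e-04 for Spry2 and 0.00415 for Phlda1), and 977 and 4 in the Tcf7 experiment. With 2 libraries per group, precision is limited by their number, and Dusp4 and Spry1 also by their low read counts.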
